A study of Mus musculus with 8 samples.

Results

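The genes of cholesterol and fatty acid synthesis that answer to the sterol regulatory element binding proteins (SREBPs) were followed across 8 mouse liver libraries. The list was set by gene name and held 30 members, of which 16 belong to the sterol branch and 14 to the lipogenic branch. Rows were found by matching Ensembl identifiers to symbols in GENCODE M21 on GRCm38. This gave 29 members, 15 sterol and 14 lipogenic, among 23006 identifiers in all, and Hmgcs1 was not analysed here. All 29 passed the filter on low counts, which kept 16876 genes.

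Wild-type mice made up all 4 groups, with 2 liver libraries in each, and the sources used here give no strain, sex or age. Control mice had phosphate-buffered saline alone. The SLIT2 group had 2 µg of SLIT2, a secreted ligand of ROBO receptors, per mouse by the intraperitoneal route for 3 days. The APAP group had saline and acetaminophen (APAP), a painkiller that damages the liver in overdose, at 400 mg/kg. Mice of the SLIT2+APAP group had both agents, and tissue was collected 24 h after APAP. The labels number the APAP libraries 3 and 4 and the libraries of every other group 1 and 2. They do not state that libraries of a group came from different animals, so p-values here measure only how far these samples spread, and that spread may be technical.

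SREBPs are made as precursors in the membrane of the endoplasmic reticulum, where the escort protein SCAP and the INSIG proteins hold them while sterols are plentiful. When sterols run low they are cut in the Golgi and their free part enters the nucleus. In liver, SREBP-2 (Srebf2) mainly drives the enzymes that make cholesterol from acetyl-CoA, while SREBP-1c, a product of Srebf1 that insulin and LXR raise, mainly drives fatty acid and triglyceride synthesis together with the glucose-sensing factor ChREBP (Mlxipl).

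SREBPs act on promoters together with NF-Y, which reads the CCAAT box, and Sp1, which reads the GGGCGG box, so the bases before the start of the members were searched for these letters. RefSeq gave promoter windows on GRCm38.p6 for 24 of the 29 members, 12 sterol and 12 lipogenic. The 250 bases before each start were searched on both strands, a gene counted when any of its starts held the motif, and a match counted whether or not it overlapped another motif. CCAAT stood in 12 of 12 sterol members and in 9 of 12 lipogenic members (75.0%), against 37.5% of all 27025 genes with a window. GGGCGG stood in 12 of 12 sterol members, in 6 of 12 lipogenic members (50.0%) and in 35.4% of all genes. CACGTG, an E-box that SREBP-1 and ChREBP can read, stood in 3 sterol members, 2 lipogenic members and 6.86% of all genes. TCACNCCAC, a form of the sterol regulatory element, stood in 0 sterol members, in Mlxipl alone among the lipogenic members and in 1.22% of all genes. Other forms of the element were not searched, so a count of 0 does not mean that it is absent. The Mlxipl match lies within chr5:135106735-135106783, before a start other than the one whose promoter is printed below. These are matches of letters, and binding was not measured.

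Of 6 members whose transcript levels differed between groups by the tests given further on, 3 sterol and 3 lipogenic, the promoter of the outermost RefSeq start is shown 5′ to 3′ on the gene's strand. Each is cut where the first GENCODE exon begins, which leaves 162 bases for Srebf2, 201 for Cyp51 and 250 for the others, and capitals mark CCAAT and GGGCGG on either strand. They come from chr15:82147019-82147180 (plus strand), chr1:121332590-121332839 (minus strand), chr5:4104747-4104947 (minus strand), chr11:60222582-60222831 (minus strand), chr5:135089640-135089889 (plus strand) and chr15:84167566-84167815 (plus strand).
Srebf2: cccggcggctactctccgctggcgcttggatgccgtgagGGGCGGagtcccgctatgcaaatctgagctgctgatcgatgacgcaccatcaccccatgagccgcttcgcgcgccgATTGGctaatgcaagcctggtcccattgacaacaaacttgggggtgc
Insig2: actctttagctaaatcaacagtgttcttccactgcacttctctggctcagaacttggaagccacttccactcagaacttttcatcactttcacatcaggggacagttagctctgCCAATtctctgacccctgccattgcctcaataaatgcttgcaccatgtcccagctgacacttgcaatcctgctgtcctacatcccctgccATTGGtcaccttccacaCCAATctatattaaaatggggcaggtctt
Cyp51: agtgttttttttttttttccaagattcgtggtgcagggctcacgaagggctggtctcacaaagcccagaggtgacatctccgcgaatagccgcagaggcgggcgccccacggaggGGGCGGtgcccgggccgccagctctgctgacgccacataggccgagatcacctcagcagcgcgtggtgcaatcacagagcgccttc
Srebf1: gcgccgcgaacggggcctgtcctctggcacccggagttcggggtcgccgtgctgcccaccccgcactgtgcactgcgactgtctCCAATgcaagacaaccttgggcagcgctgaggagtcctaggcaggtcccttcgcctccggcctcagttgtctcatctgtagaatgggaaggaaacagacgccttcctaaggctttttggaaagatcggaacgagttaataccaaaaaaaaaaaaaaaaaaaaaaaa
Mlxipl: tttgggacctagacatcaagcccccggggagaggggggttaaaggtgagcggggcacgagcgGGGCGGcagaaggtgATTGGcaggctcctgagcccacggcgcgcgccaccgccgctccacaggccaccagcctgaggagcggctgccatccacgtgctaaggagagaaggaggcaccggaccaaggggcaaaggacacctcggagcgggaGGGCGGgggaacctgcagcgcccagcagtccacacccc
Pnpla3: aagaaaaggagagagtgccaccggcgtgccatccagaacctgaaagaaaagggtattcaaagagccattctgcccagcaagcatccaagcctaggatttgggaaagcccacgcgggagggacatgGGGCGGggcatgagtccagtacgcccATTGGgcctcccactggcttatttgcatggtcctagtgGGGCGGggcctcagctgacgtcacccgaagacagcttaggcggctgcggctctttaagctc
The Srebf2 stretch holds 1 CCAAT and 1 GGGCGG, that of Mlxipl 1 and 2, and that of Pnpla3 1 and 2. Insig2 has 3 CCAAT boxes and 0 GGGCGG in its stretch, and that of Srebf1, which lies before the outermost of 3 starts, has 1 and 0. In Cyp51 the GGGCGG box is printed and its 1 CCAAT lies in the bases left out.

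Libraries held 60.8 to 100.5 M counts (1 M is 1000000), and levels are counts per 1000000 (CPM) on TMM-scaled totals. The SLIT2 libraries stood apart from the rest. The 13 mitochondrially encoded genes took 60.2% and 69% of their counts, against 25.1% and 30.3% in SLIT2+APAP, 16% and 17.3% in control and 14.9% and 13.4% in APAP. Summed CPM of 8 hepatocyte markers, all detected in every group, ran from 56293.5 to 76412.5 in control, 8476.6 to 14748.0 in SLIT2, 91065.8 to 109587.2 in APAP and 68196.2 to 70493.3 in SLIT2+APAP. Fat cells also carry lipogenic transcripts, and 9 adipocyte markers summed to 10.7 to 20.8 CPM in control, 27.2 to 28.5 in SLIT2, 8.08 to 15.0 in APAP and 8.64 to 9.69 in SLIT2+APAP. Most of the SLIT2 sum was Adrb3, at 26.9 and 25.8 CPM, with Adipoq, Plin1 and Cidea at 0 in both SLIT2 libraries. Plin1 was at 0 in both control, both SLIT2 and both SLIT2+APAP libraries. Sums for 8 skeletal muscle markers were 92.1 to 844.8 in control and at most 1.53 elsewhere. Neutrophil markers (7 genes, with Ly6g at 0 outside the APAP libraries) summed to 3.07 to 3.76 in control, 28.5 to 32.0 in SLIT2, 7.34 to 21.4 in APAP and 6.82 to 7.79 in SLIT2+APAP. Most of the SLIT2 sum was Cxcr2, at 26.8 and 26.3 CPM against 1.62 and 1.66 in control. Mpo was also higher, at 1.61 and 1.1 against 0.119 and 0.0946. S100a8 stood at 1.75 and 0.507 against 0.572 and 0.978, S100a9 and Retnlg likewise overlapped between these groups, and Elane was at 0 in SLIT2. For 7 macrophage markers the sums were 56.6 to 72.8, 39.1 to 42.7, 66.0 to 86.9 and 58.3 to 66.0 in the same order, and for 8 endothelial and stellate markers 168.8 to 169.2, 97.6 to 115.7, 120.7 to 252.5 and 177.8 to 193.4. In whole tissue, fewer cells of a type and less RNA per cell cannot be told apart. The part of these shares and markers in the results that follow was not tested.

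In control liver the members spanned a wide range per length. On the scale of mean CPM per kb of exon, the desaturase Scd1 was highest at 203.4, followed by Dgat2, which makes triglyceride in its last step, at 90.2, and the elongase Elovl5 at 86.8. The brakes on SREBP processing, Insig1 and Insig2, stood at 79.2 and 71.5. Sterol enzymes ran from 1.97 for the lanosterol synthase Lss to 40.4 for the isopentenyl diphosphate isomerase Idi1. The length used is all annotated exon bases of a gene, 10787 for Lss. By mean CPM, without length, Lss (21.2) was above Mvd (17.2) and Mvk (12.2). Srebf1 stood at 9.71 and Srebf2 at 3.78, and the lowest member was the lipid droplet lipase gene Pnpla3 at 0.240. Exons of Cyp51, Fdft1 and Srebf1 overlap those of Akap9, Ctsb and Rai1 on the other strand, and exons of Fdps overlap Gm43738 on its own strand. Noncoding genes overlap Idi1, Lss, Srebf1, Mlxipl, Elovl6, Me1 and Pnpla3. The strand setting of the counting is not given, so the values of these 10 members are uncertain to that extent, as is Scd1, which has close copies in the genome.

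The listed members of the branches moved apart between the libraries of the APAP group. Thrsp, which encodes the Spot 14 regulator of fatty acid synthesis, stood at 1838 CPM in APAP 3 and 25.1 in APAP 4, a 73.3-fold difference between libraries of the same dose. Pnpla3 stood at 7.02 and 0.321 CPM, Scd1 at 4840.0 and 735, and the fatty acid synthase Fasn at 478 and 92.6. Each of these was above both control libraries in APAP 3. In APAP 4 Scd1 and Fasn lay between the control libraries and Thrsp lay under both. Pnpla3 was level with control 1 there, at 0.321 against 0.322 CPM, from 33 and 27 counts. Idi1 went the other way, with 12.6 CPM in APAP 3 and 142 in APAP 4, an 11.2-fold difference. The squalene epoxidase Sqle (18.1 and 65.6), the squalene synthase Fdft1 (27.0 and 98.7) and the sterol demethylase Msmo1 (49.2 and 138) were likewise low in APAP 3.

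Counted over the lists, all 14 lipogenic members were higher in APAP 3 than in APAP 4, where 51.6% of all genes tested were higher, and 8 were at least 2-fold higher, against 19.7% of all genes. Of the 15 sterol members, 12 were lower in APAP 3, against 47.4% of all genes, and 8 at least 2-fold lower, against 13.6%. The 3 sterol exceptions were Dhcr7 at 46.5 and 45.3 CPM, Insig1 at 282 and 243, and Insig2 at 216 and 112. The median log2 difference, APAP 3 minus APAP 4, was -1.14 over the sterol members and 1.27 over the lipogenic members, against 0.04 over all genes. Pathway partners are genes in or around the branches, outside the member list, and include a cholesterol exporter and lipid droplet genes. Over them the median log2 difference was -0.11 for 19 sterol and 0.71 for 22 lipogenic genes. Of the sterol partners 9 were higher and 10 lower in APAP 3, and of the lipogenic partners 15 were higher and 7 lower. These compare 1 library with 1 other and carry no test. Adipocyte markers also differed between these libraries, with a sum over 9 genes of 15.0 CPM in APAP 3 and 8.08 in APAP 4. Of the 9, 6 were higher in APAP 3, led by Fabp4 at 12.1 and 3.93 CPM, with Plin1 at 9 and 0 counts and Adipoq at 4 and 0, while Cfd and Adrb3 were lower and Lep was at 0 in both. The neutrophil sum was 21.4 CPM in APAP 3 and 7.34 in APAP 4. In the same order the endothelial and stellate sum was 252.5 and 120.7, with Lrat and Col1a1 lower in APAP 3. The macrophage sum was 86.9 and 66.0, with Timd4 and Marco lower in APAP 3. The part of these cell types in the difference was not tested.

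**Figure D1:**
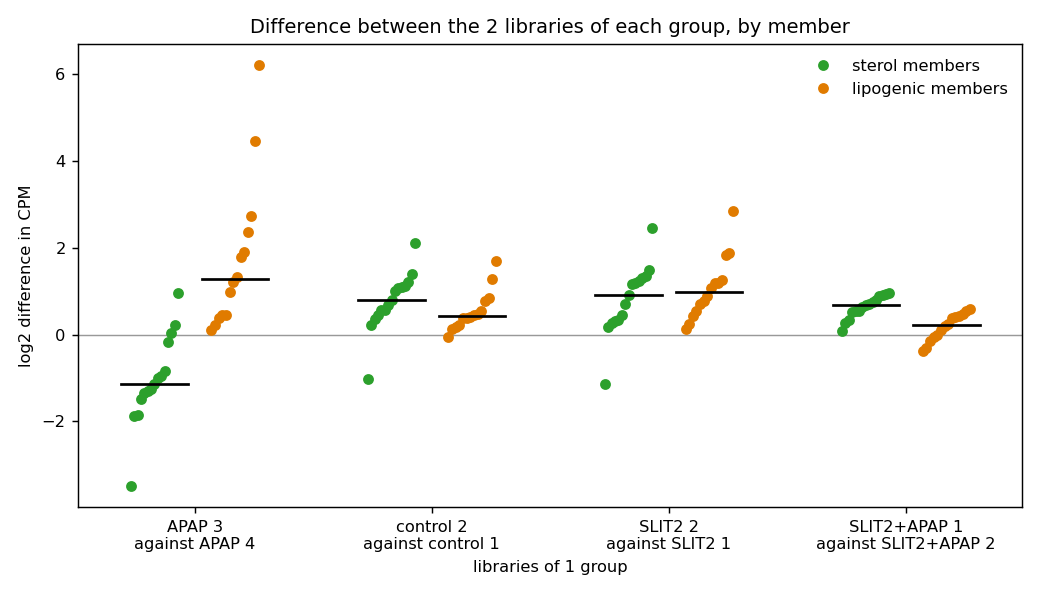
Log2 difference in CPM between the libraries of each group for every member, sterol members in green and lipogenic members in orange, with the median as a bar. In APAP the lipogenic members lie above 0 (median 1.27) and most sterol members under it (median -1.14), while in control and SLIT2 both lists lie mostly above 0.

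In the other groups the members of the branches did not part in this way. Control 2 was above control 1 in 14 of 15 sterol and 13 of 14 lipogenic members (49.7% of all genes), with medians of 0.79 and 0.42 on the log2 scale beside a median absolute difference of 0.22 over all genes. SLIT2 2 was above SLIT2 1 in 14 of 15 sterol and 14 of 14 lipogenic members (45.8% of all genes), with medians of 0.91 and 0.98. SLIT2+APAP 1 was above SLIT2+APAP 2 in 15 of 15 sterol members and 9 of 14 lipogenic members (50.5% of all genes), with medians of 0.68 and 0.22. The 1 sterol member that ran against the others in control and in SLIT2 was Insig2, whose liver-specific transcript is known to fall with insulin. It stood at 334 CPM in control 1 and 163 in control 2, and at 29.6 in SLIT2 1 and 13.4 in SLIT2 2. The mevalonate diphosphate decarboxylase Mvd had the widest sterol spread in control, with 6.45 and 27.9 CPM. In each of the 4 groups the median absolute difference of both lists was above that of all genes, and this spread enters every test that follows.

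**Figure D2:**
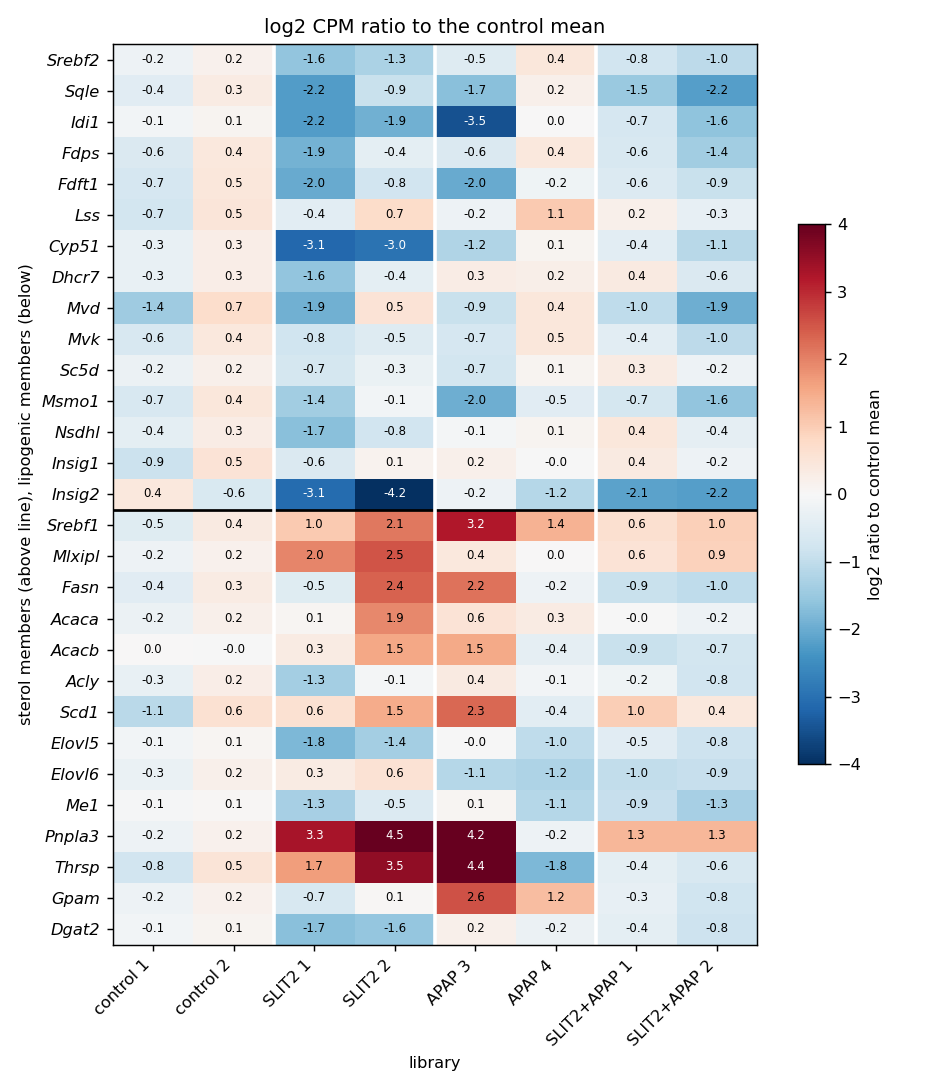
Log2 ratio of each member's CPM (plus 0.01 CPM) to the control mean in each library, sterol members above the line and lipogenic members under it, red for higher and blue for lower, with colours capped at 4. The column of APAP 3 is blue for most sterol members and red for most lipogenic ones, and that of APAP 4 is pale for most members.

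The position of each library on the sterol and the lipogenic axis was given by the median log2 ratio of its members to the control mean. For sterol members it was -0.45 and 0.34 in control, -1.66 and -0.52 in SLIT2, -0.68 and 0.11 in APAP, and -0.56 and -1.04 in SLIT2+APAP. For lipogenic members it was -0.22 and 0.19 in control, 0.21 and 1.51 in SLIT2, 1.03 and -0.23 in APAP, and -0.37 and -0.75 in SLIT2+APAP. The lipogenic median exceeded the sterol median by 1.87 and 2.03 in the SLIT2 libraries and by 1.71 in APAP 3. In the remaining 5 libraries the gap lay between -0.34 and 0.29. Over all genes the median of each library was between -0.06 and 0.02.

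**Figure D3:**
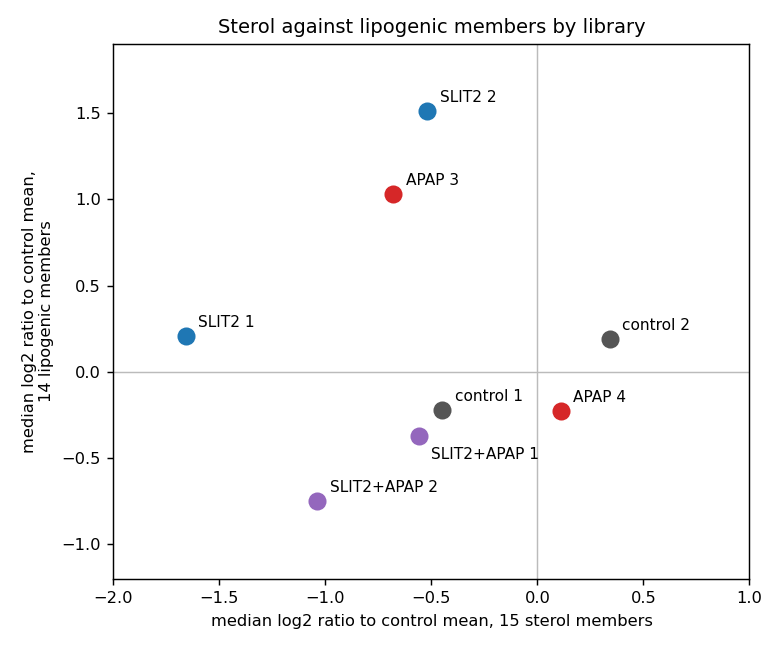
Median log2 ratio to the control mean over 15 sterol members (horizontal) and 14 lipogenic members (vertical), 1 point per library coloured by group. Both SLIT2 libraries and APAP 3 lie to the upper left, with lipogenic medians above sterol medians by 1.71 to 2.03, and the other 5 libraries lie near the diagonal.

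SLIT2 against control asks what SLIT2 did without the toxic dose. Of 15 sterol members 0 rose and 4 fell (Insig2, Cyp51, Srebf2 and Nsdhl), and of 14 lipogenic members 3 rose (Mlxipl, Pnpla3 and Srebf1) and 2 fell (Dgat2 and Elovl5). Calls were made at an edgeR adjusted p under 0.05 over all genes, by which 27.3% of all genes rose and 27.6% fell in this comparison, so the 4 sterol falls of 15 and the 3 lipogenic rises of 14 are shares near that background. The median log2 fold change was -0.95 over the sterol members, 1.08 over the lipogenic members and 0 over all genes. Without overlap between groups, 9 sterol members were lower and 0 higher, and 6 lipogenic members were higher and 3 lower, against 41.4% of all genes lower and 41.2% higher.

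Among sterol regulators, Srebf2 stood at 23.8 and 30.5 CPM in control and at 9.02 and 11.4 in SLIT2. Both SLIT2 libraries were under both controls, and Srebf2 fell by 1.41 ± 0.33 on the log2 scale (SE, n = 2 per group, edgeR adjusted p = 0.007989). The call was lost without control 2 (adjusted p = 0.06763) or without SLIT2 1 (adjusted p = 0.06172). Insig2 stood at 334 and 163 CPM in control against 29.6 and 13.4 in SLIT2, the deepest difference of any sterol member. It fell by 3.53 ± 0.53 (adjusted p = 0.0009766), while its relative Insig1, itself an SREBP target, stood at 134 and 356 in control and 165 and 271 in SLIT2. The Insig1 groups overlapped, with a log2 fold change of -0.17 ± 0.46 (adjusted p = 0.7733).

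Of the sterol enzymes, Cyp51, which removes a methyl group from lanosterol, stood at 119 and 175 CPM in control and at 16.8 and 18.9 in SLIT2. The SLIT2 values were close together and far under control, and Cyp51 fell by 3.04 ± 0.46 (adjusted p = 0.00103). Nsdhl, which acts in the following demethylation steps, stood at 32.2 and 51.6 against 13.2 and 24.8 CPM and fell by 1.14 ± 0.39 (adjusted p = 0.03801). That call was lost without control 2 (adjusted p = 0.2649), without SLIT2 1 (adjusted p = 0.1903), and with a filter of at least 10 CPM in 2 libraries, which gave -0.58 (adjusted p = 0.2393). Idi1 stood at 131 and 152 CPM in control and at 30.4 and 37.7 in SLIT2, a log2 fold change of -2.06 ± 0.88 that missed the threshold (adjusted p = 0.07906). Its groups did not overlap, but the spread of the APAP libraries, 12.6 and 142 CPM, enters the shared error of this fit. Sc5d, a desaturase of the last steps, stood at 149 and 205 against 108 and 148 CPM and did not pass. The cyclase Lss was the 1 sterol member with a positive log2 fold change, 0.26 ± 0.56, at 12.8 and 29.7 in control and 15.8 and 35.3 in SLIT2.

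Among lipogenic regulators, Mlxipl stood at 85.1 and 112 CPM in control and at 384 and 561 in SLIT2. Both SLIT2 libraries were far above both controls, and Mlxipl rose by 2.26 ± 0.30 on the log2 scale (edgeR adjusted p = 0.0005672). Srebf1 stood at 39.5 and 70.0 in control and 113 and 236 in SLIT2 and rose by 1.67 ± 0.60 (adjusted p = 0.04414). The Srebf1 call was lost without either control library (adjusted p = 0.2214 without control 1 and 0.06487 without control 2), without SLIT2 2 (0.2356), without either SLIT2+APAP library (0.07235 and 0.07219), and with no count filter (0.06824). Pnpla3, a target of both regulators, had 27 and 40 counts in control and 253 and 471 in SLIT2, or 0.322 and 0.421 against 3.73 and 8.53 CPM. It rose by 4.03 ± 1.19 (adjusted p = 0.02113), and the call was lost without control 1 (0.1094), control 2 (0.08568) or SLIT2 2 (0.09938).

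The enzymes of fatty acid synthesis did not pass as a group. Fasn stood at 78.3 and 135 CPM in control and at 76.0 and 545 in SLIT2, so that 1 SLIT2 library was at the control level and 1 above it (1.54 ± 0.93, adjusted p = 0.1913). Acetyl-CoA carboxylase 1 (Acaca) stood at 22.8 and 30.8 against 28.3 and 101, and ATP-citrate lyase (Acly), which supplies the acetyl-CoA, at 55.8 and 81.8 against 27.1 and 64.5. Neither passed. Elovl6 stood at 40.0 and 55.4 CPM in control and at 60.4 and 71.9 in SLIT2, both above both controls, without passing (0.47 ± 0.22, adjusted p = 0.1042). Dgat2 stood at 258 and 298 CPM in control and 87.1 and 94.6 in SLIT2 and fell by 1.61 ± 0.26 (adjusted p = 0.001331). Elovl5, which elongates polyunsaturated fatty acids, stood at 286 and 325 against 88.1 and 119 and fell by 1.56 ± 0.35 (adjusted p = 0.006383). Cyp51, Insig2, Mlxipl, Dgat2 and Elovl5 kept their calls in all 19 alternative fits of this comparison.

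The levels of the other members across the groups were as follows. Among the early sterol enzymes, the mevalonate kinase Mvk stood at 7.89 and 16.5 in control, 7.06 and 8.49 in SLIT2, 7.61 and 16.7 in APAP and 9.15 and 5.91 in SLIT2+APAP. The farnesyl diphosphate synthase Fdps stood at 76.6 and 154, 31.3 and 88.0, 77.7 and 155, and 73.9 and 44.3 in the same order. Both were low in SLIT2+APAP 2 and had a control library within the range of SLIT2. Dhcr7, which forms cholesterol in its last step, stood at 30.9 and 45.5 CPM in control, 12.7 and 28.9 in SLIT2, 46.5 and 45.3 in APAP and 49.5 and 25.4 in SLIT2+APAP, with both SLIT2 libraries under both controls. On the lipogenic side the malic enzyme Me1, a source of NADPH, stood at 107 and 117 in control, 44.8 and 76.6 in SLIT2, 119 and 50.9 in APAP and 59.3 and 44.6 in SLIT2+APAP. All 4 libraries with SLIT2 were under both controls, as was APAP 4 without SLIT2, and Me1 passed the test in none of the comparisons. Scd1 stood at 469 and 1521 in control, 1506 and 2795 in SLIT2, and 1962 and 1339 in SLIT2+APAP, so its control range reached into that of both groups.

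**Figure D4:**
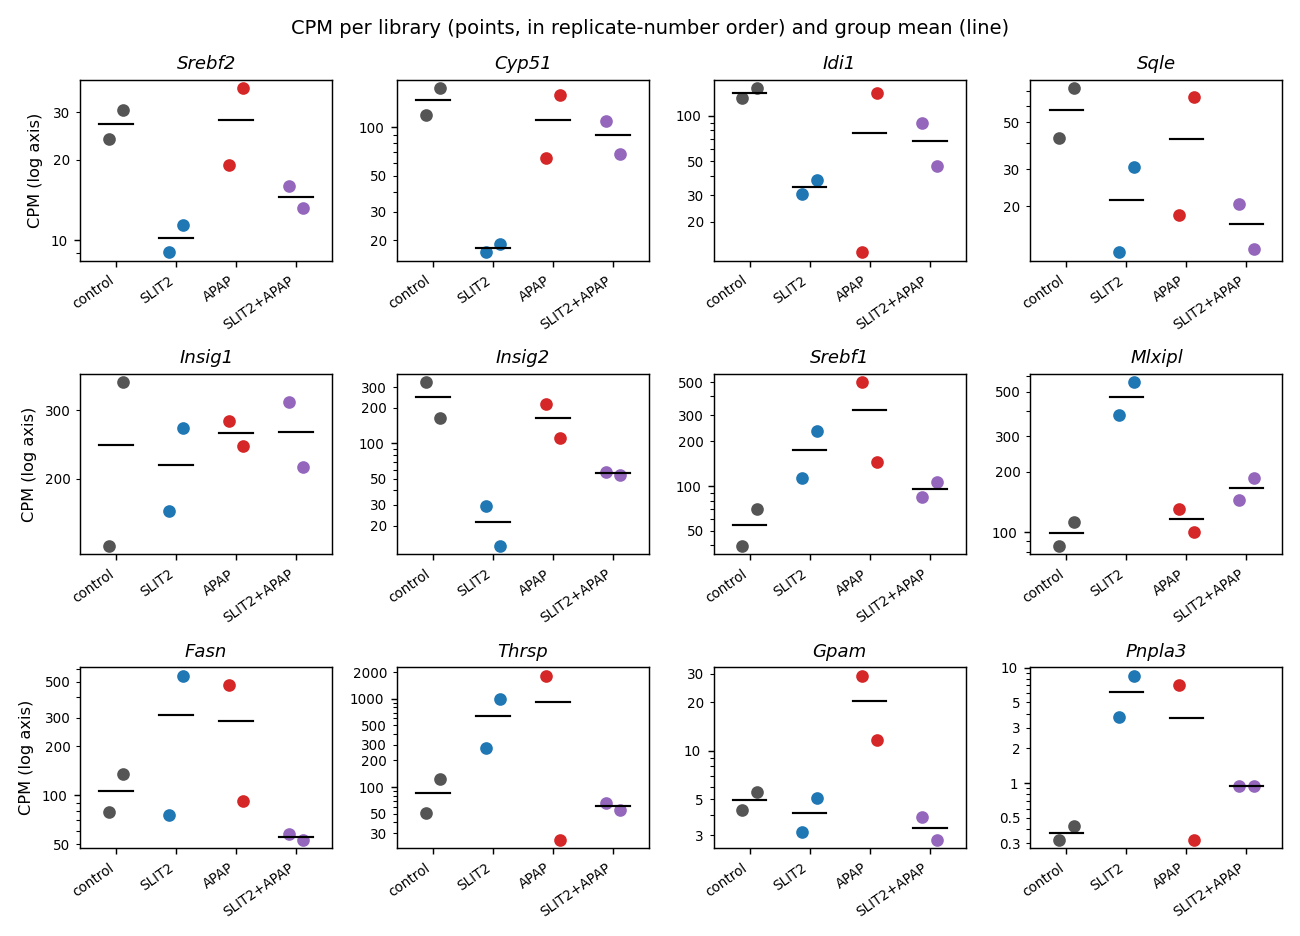
CPM per library on log axes for 12 members, points in replicate-number order by group, with the group mean as a line. Cyp51, Insig2 and Srebf2 are low and Mlxipl high in both SLIT2 libraries, while Thrsp, Fasn and Pnpla3 differ widely between the APAP libraries.

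Genes on the lists of pathway partners were as follows in the same comparison. Of 19 sterol partners 3 rose and 5 fell, beside 27.3% and 27.6% of all genes. Ebp, a sterol isomerase, fell by 2.31 ± 0.26 (edgeR adjusted p = 0.000278), Hsd17b7 by 2.17 ± 0.29 and Tm7sf2, a sterol reductase, by 2.63 ± 0.36, while Soat2, which esterifies cholesterol, rose by 1.60 ± 0.27. Of 22 lipogenic partners 2 rose and 10 fell, beside the same shares. The median log2 fold change was -0.39 over the sterol partners and -0.93 over the lipogenic partners, beside -0.95 and 1.08 over the members. The lipogenic partners thus did not share the direction of the lipogenic members. The 4 with the smallest p were Agpat2, which makes phosphatidic acid, Fads1 and Fads2, the desaturases of polyunsaturated fatty acids, and the elongase Elovl2, which fell by 2.48 ± 0.26, 2.19 ± 0.24, 2.69 ± 0.33 and 3.00 ± 0.50. Fads1 stood at 198.4 and 209.7 CPM in control and at 48.0 and 41.4 in SLIT2. Both SLIT2 libraries were under both controls.

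The comparison of APAP with control concerns the toxic dose by itself. No member passed the test, with 0 of 15 sterol and 0 of 14 lipogenic members called by edgeR, where 0.788% of all genes were called. At an unadjusted p under 0.05 there were 0 sterol and 4 lipogenic members, beside 4149 of 16876 genes. DESeq2 called 0 sterol and 4 lipogenic members, beside 1798 of 23006 genes. The median log2 fold change was -0.08 over sterol members, 0.65 over lipogenic members and 0.05 over all genes. The spread between the APAP libraries set out above is part of the error here.

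The 4 members with the smallest p were all lipogenic. Elovl6, which elongates palmitate, stood at 40.0 and 55.4 CPM in control and at 21.6 and 20.1 in APAP, where both libraries were under both controls (-1.19 ± 0.22, edgeR adjusted p = 0.05578). Gpam, the mitochondrial acyltransferase that starts glycerolipid synthesis, stood at 4.28 and 5.60 against 29.2 and 11.7, both above control (2.05 ± 0.46, adjusted p = 0.06938). Srebf1 stood at 39.5 and 70.0 against 502 and 145, also both above control (2.56 ± 0.62, adjusted p = 0.07636). Pnpla3, at 0.322 and 0.421 in control, stood at 7.02 in APAP 3 and 0.321 in APAP 4 (3.29 ± 1.17, adjusted p = 0.144), and its estimate turned to -0.21 without APAP 3. Srebf1, Gpam and Acaca (39.2 and 33.4 against 22.8 and 30.8) were above and Elovl6 under both controls in both APAP libraries. Pnpla3, Thrsp and Fasn were above both controls in APAP 3 alone. Without overlap between groups, 3 of 14 lipogenic members were higher and 1 lower, and 0 of 15 sterol members were either. Over all genes 26.9% were higher and 26.1% lower in that way, so these counts are not above the background.

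The calls depended on which APAP library was used. Without APAP 4, with the lone library assumed to vary like the other groups, edgeR called 2 sterol members lower (Cyp51 and Idi1), 6 lipogenic members higher (Acacb, Gpam, Pnpla3, Scd1, Srebf1 and Thrsp) and Elovl6 lower, in a fit that called 5181 of 18053 genes. Without APAP 3 it called 0 sterol members and 1 lipogenic member, Elovl6, in a fit that called 553 of 17831 genes. Of the partner lists, 0 of 19 sterol and 0 of 22 lipogenic genes passed with both libraries.

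SLIT2+APAP against APAP asks what SLIT2 did in mice given the toxic dose. Of 14 lipogenic members 0 rose and 1 fell, Gpam, and of 15 sterol members 0 passed, where 6.28% of all genes rose and 7.63% fell. Gpam stood at 29.2 and 11.7 CPM in APAP and at 3.90 and 2.81 in SLIT2+APAP, which is close to the 4.28 and 5.60 of control. It fell by 2.61 ± 0.47 on the log2 scale (edgeR adjusted p = 0.01511). The call was lost without either SLIT2+APAP library (adjusted p = 0.09476 and 0.1645) and in a fit of the 4 compared libraries alone (0.09608). The median log2 fold change was -0.32 over sterol members, -0.73 over lipogenic members and -0.06 over all genes.

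Without overlap between groups, 4 of 15 sterol and 7 of 14 lipogenic members were lower in SLIT2+APAP than in APAP, against 29.4% of all genes, and 0 sterol and 2 lipogenic members (Mlxipl and Elovl6) were higher, against 28.8%. Insig2 stood at 216 and 112 CPM in APAP and 56.8 and 54.2 in SLIT2+APAP (-1.56 ± 0.49, adjusted p = 0.07029). Srebf1 stood at 502 and 145 against 84.6 and 106 (-1.76 ± 0.60, adjusted p = 0.086), and Srebf2 at 19.1 and 37.0 against 15.9 and 13.2 (-0.95 ± 0.33, adjusted p = 0.08925). In each of the 3 the SLIT2+APAP values were close together under both APAP values, and none passed the test. At an unadjusted p under 0.05 there were 2 sterol and 5 lipogenic members beside 5591 of all genes. DESeq2 called 1 sterol and 3 lipogenic members, beside 3490 of 23006 genes. Without APAP 4 edgeR called 6 lipogenic members lower (Acacb, Gpam, Me1, Pnpla3, Srebf1 and Thrsp), with Idi1 higher and Insig2 lower among sterol members, in a fit that called 6134 of 18053 genes.

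The partners gave 0 rises and 2 falls of 19 in the sterol list and 0 rises and 5 falls of 22 in the lipogenic list. Of all genes 6.28% rose and 7.63% fell. Tm7sf2 stood at 110.6 and 83.5 CPM in APAP and 34.4 and 18.7 in SLIT2+APAP and fell by 1.87 ± 0.35 (edgeR adjusted p = 0.01583), and the cholesterol exporter Abca1 fell by 1.53 ± 0.42 (0.04898). Fads2 stood at 47.0 and 86.2 against 12.9 and 9.65 and fell by 2.56 ± 0.33 (0.006465). Both lipid droplet protein genes on the list fell. Plin2 stood at 1231.1 and 377.4 against 104.8 and 107.6 CPM and fell by 2.92 ± 0.59 (0.02024), and Cidec, at 122.6 and 2.55 against 0.864 and 1.04, fell by 6.03 ± 1.49 (0.03609). Irs2, an insulin receptor substrate, stood at 12.9 and 3.42 against 0.688 and 1.05 and fell by 3.21 ± 0.63 (0.01895). For Cidec the size came from APAP 3, as APAP 4 stood at 2.55 CPM beside 1.81 and 1.96 in control.

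SLIT2+APAP against control compares liver after both agents with liver after saline alone. No member passed by edgeR, with 0 of 15 sterol and 0 of 14 lipogenic members called, where 2.14% of all genes were called. At an unadjusted p under 0.05 there were 3 sterol and 4 lipogenic members beside 3445 of all genes. DESeq2 called 2 sterol members and 1 lipogenic member, beside 1433 of 23006 genes. The median log2 fold change was -0.72 over sterol members, -0.53 over lipogenic members and 0.04 over all genes. Without overlap between groups, 7 sterol and 7 lipogenic members were lower, against 32.3% of all genes, and 0 sterol and 3 lipogenic members (Srebf1, Mlxipl and Pnpla3) were higher, against 35.2%.

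Insig2 had the smallest p, at 334 and 163 CPM in control and 56.8 and 54.2 in SLIT2+APAP (-2.16 ± 0.50, edgeR adjusted p = 0.06572). Elovl6 stood at 40.0 and 55.4 against 24.0 and 25.0 (-0.96 ± 0.22, adjusted p = 0.0659), which is near its level in APAP alone. Srebf2 stood at 23.8 and 30.5 against 15.9 and 13.2 (-0.90 ± 0.33, adjusted p = 0.1763) and Sqle at 42.1 and 72.7 against 20.5 and 12.6 (-1.80 ± 0.66, adjusted p = 0.1789). In all 4 both treated libraries were under both controls. Fads2, the 1 lipogenic partner called, stood at 45.5 and 40.1 CPM in control and 12.9 and 9.65 in SLIT2+APAP and fell by 1.92 ± 0.32 (edgeR adjusted p = 0.03502), where 1.45% of all genes fell, and 0 sterol partners passed.

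The interaction tests whether the log2 effect of SLIT2 with APAP differed from its effect without APAP. Among sterol members 1 had a higher effect with APAP, Cyp51, and among lipogenic members 6 had a lower one, Mlxipl, Srebf1, Pnpla3, Gpam, Acacb and Thrsp. Over all genes 15.5% were called higher and 13.4% lower. The medians were 0.56 over sterol members, -1.85 over lipogenic members and -0.09 over all genes. This test uses the same libraries as the comparisons above.

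Cyp51 stood at 119 and 175 CPM in control, 16.8 and 18.9 in SLIT2, 64.3 and 159 in APAP and 110 and 68.5 in SLIT2+APAP. The SLIT2 libraries held the lowest values, and the difference of effects was 2.72 ± 0.62 on the log2 scale (edgeR adjusted p = 0.01731). Mlxipl was highest in SLIT2, with 131 and 100.3 CPM in APAP and 144 and 187 in SLIT2+APAP, a difference of -1.74 ± 0.41 (adjusted p = 0.01965). Srebf1 was above control in every treated library, and its SLIT2+APAP levels lay between those of control and APAP, a difference of -3.44 ± 0.85 (adjusted p = 0.02271). Gpam, high in APAP alone, gave -2.35 ± 0.64 (adjusted p = 0.03105).

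In APAP the higher library exceeded the lower 1.31-fold for Mlxipl, 2.46-fold for Cyp51, 2.5-fold for Gpam, 3.46-fold for Srebf1, 3.7-fold for Acacb, 21.9-fold for Pnpla3 and 73.3-fold for Thrsp. Pnpla3 gave -5.99 ± 1.60 (edgeR adjusted p = 0.02886), with 3.73 and 8.53 CPM in SLIT2, 7.02 and 0.321 in APAP and 0.939 and 0.941 in SLIT2+APAP. Acacb, the carboxylase whose product restrains fatty acid oxidation, stood at 12.4 and 11.9 in control, 15.4 and 35.3 in SLIT2, 34.9 and 9.44 in APAP and 6.53 and 7.32 in SLIT2+APAP (-2.73 ± 0.83, adjusted p = 0.04157). Thrsp stood at 50.4 and 122 in control, 274 and 1001 in SLIT2, 1838 and 25.1 in APAP and 65.6 and 55.6 in SLIT2+APAP (-6.83 ± 2.12, adjusted p = 0.0453). Without APAP 3 the difference was -1.58 for Thrsp (adjusted p = 0.3336) and -1.47 for Acacb (adjusted p = 0.08219). No lipogenic member was called without either control library, without SLIT2 2 or without either SLIT2+APAP library. The Cyp51 call was lost without control 2, without either SLIT2 library or without SLIT2+APAP 1. Those of Pnpla3 and Thrsp were also lost without SLIT2 1. These fits also called fewer of all genes than the fit of all libraries.

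**Figure D5:**
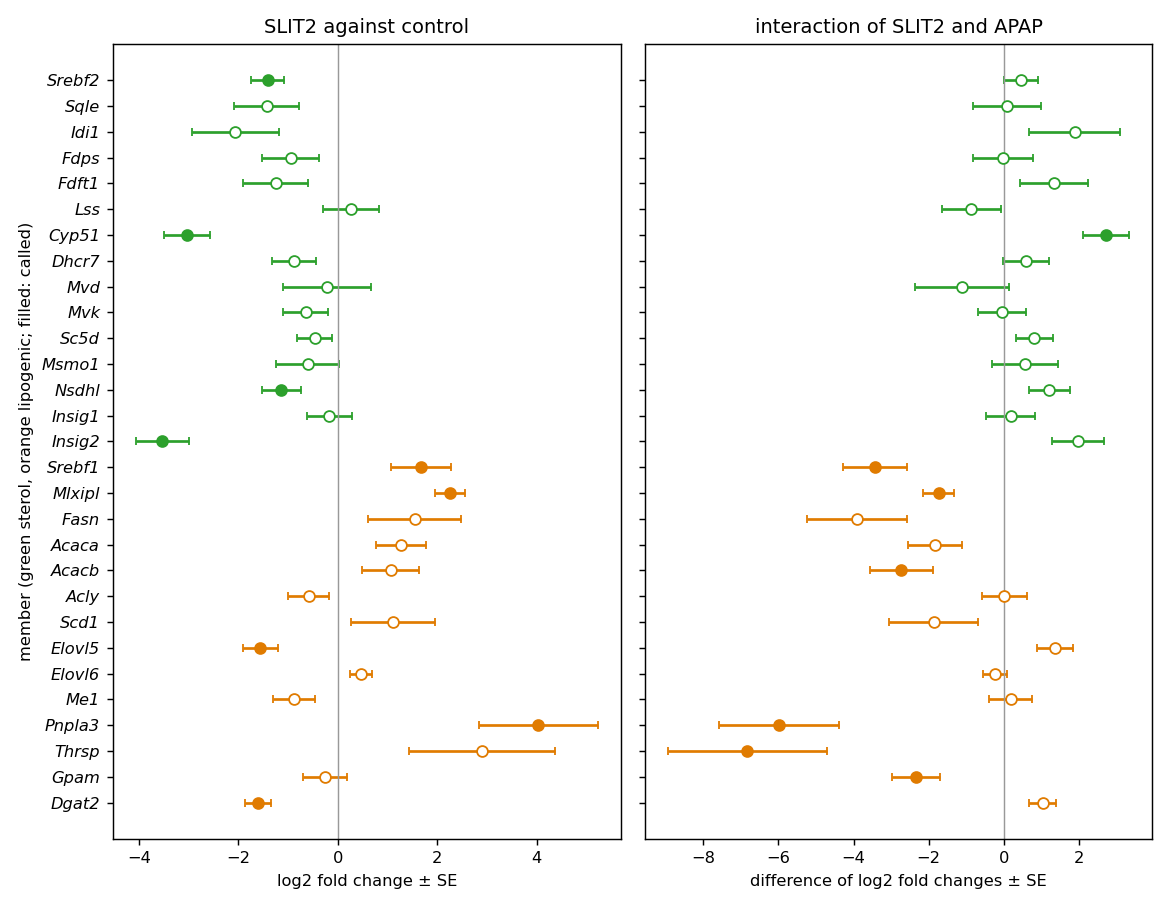
Log2 fold change with its standard error for SLIT2 against control (left) and the difference of SLIT2 effects with and without APAP (right), 1 row per member, sterol in green and lipogenic in orange, filled where called. On the left 4 sterol members are called lower, 3 lipogenic members higher and 2 lower, and on the right 6 lipogenic members are called lower and Cyp51 higher.

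Among partners the interaction was called higher for 3 and lower for 1 of 19 sterol genes, and higher for 3 and lower for 3 of 22 lipogenic genes. These counts stand beside 15.5% higher and 13.4% lower over all genes. Ebp (2.11 ± 0.35, edgeR adjusted p = 0.007035), Hsd17b7 (1.32 ± 0.40) and the thiolase Acat1 (2.58 ± 0.80) were on the side of Cyp51, and Soat2 (-1.51 ± 0.37) on the other. Ebp stood at 148.6 and 196.7 CPM in control, 35.3 and 34.4 in SLIT2, 228.4 and 192.4 in APAP and 211.9 and 155.5 in SLIT2+APAP. Its lowest values were also those of the SLIT2 libraries. Fads1 (1.65 ± 0.32), Elovl2 (3.27 ± 0.68) and Agpat2 (1.56 ± 0.35) were called higher and Irs2 (-3.48 ± 0.89) lower.

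The balance of the paired regulators was read per length in each library. The ratio of Srebf1 to Srebf2 in CPM per kb was 2.12 and 2.92 in control, 16.0 and 26.4 in SLIT2, 33.5 and 5.0 in APAP, and 6.79 and 10.2 in SLIT2+APAP. It was above control in all 6 treated libraries, and SLIT2+APAP lay between control and SLIT2. The ratio of Insig1 to Insig2 was 0.452 and 2.45 in control, 6.26 and 22.6 in SLIT2, 1.47 and 2.44 in APAP, and 6.22 and 4.45 in SLIT2+APAP. It was higher in all 4 libraries with SLIT2 than in all 4 without it. Fasn to Sqle, a lipogenic to sterol enzyme ratio, was 0.942 and 0.937 in control, 3.19 and 9.0 in SLIT2, 13.4 and 0.715 in APAP, and 1.41 and 2.13 in SLIT2+APAP. These ratios are descriptions and were not tested. An exact permutation test of 2 against 2 libraries cannot give a two-sided p under 0.333.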

How the data were processed

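Directional RNA libraries of total liver RNA were sequenced in 8 samples, 2 per group, and the groups were taken from the labels. The authors deposited whole-number counts per gene, not normalized, for 23006 Ensembl identifiers, and all columns were used. Named without a role in the submitters' processing notes are mm10, Cuffdiff 2.2.1, Cufflinks and STAR 2.5.4. The sources used here do not give the counting step, its annotation, strand setting or treatment of reads with several map positions. The table held 93 values at or above 1000000, and 72 of them end in 0. GENCODE M21 matched 22341 identifiers (97.1%).

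Genes were kept by filterByExpr (16876), scaled by TMM and tested in R 4.3.3 with edgeR 4.0.16 (robust quasi-likelihood fit, legacy off, 1 mean per group, 4 residual degrees of freedom), with Benjamini-Hochberg adjustment over all genes. A gene was called at an adjusted p under 0.05. The fits were tested on simulated data. The members, lists and tests were chosen with earlier results of these data known. The text names every called member, the 4 with the smallest p where fewer than 4 were called, and at most 4 called partners per list and comparison, and other members are described by their levels.

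Alternatives were DESeq2 1.42.0, DESeq2 size factors in edgeR, library totals, the legacy fit, a filter of 10 CPM in 2 libraries, no filter on counts, a fold of at least 2, offsets for GC content, no mitochondrially encoded genes, the compared libraries alone, no SLIT2 libraries, each library left out, and a replicate block. A fit without the APAP libraries was chosen after seeing the data. RefSeq promoter windows were on GRCm38.p6. Reads carry no molecular identifiers, so counts are not independent molecules. Figures were drawn with matplotlib 3.10.9.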

Additional observations from a re-analysis of the deposited data

Results flagged for a closer look

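The effect of SLIT2 with APAP differed from its effect without APAP, by the edgeR interaction test over all 8 libraries, for 7 of 29 members, beside 28.8% of all genes. On the log2 scale the difference was 2.72 for Cyp51, -1.74 for Mlxipl, -3.44 for Srebf1, -5.99 for Pnpla3, -2.35 for Gpam, -2.73 for Acacb and -6.83 for Thrsp. In APAP 3 and APAP 4, Pnpla3 stood at 7.02 and 0.321 CPM, Thrsp at 1838 and 25.1, Acacb at 34.9 and 9.44, and Srebf1 at 502 and 145. Gpam stood at 29.2 and 11.7, Cyp51 at 64.3 and 159, and Mlxipl at 131 and 100.3. The part of the mitochondrial share and the hepatocyte markers, which set the SLIT2 libraries apart, was not tested.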

How the results depend on the processing

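With 2 libraries per group the calls shifted with single libraries, and the cause was not tested. In every comparison the number called among all genes shifted too, so the ranges given next are not particular to the members. Whether the members shifted more than other genes was not tested. Leaving out 1 library at a time gave 0 to 2 sterol calls in APAP against control, 2 to 5 in SLIT2 against control, 0 to 2 in SLIT2+APAP against APAP, 0 to 3 in SLIT2+APAP against control and 0 to 4 in the interaction, and 0 to 7, 3 to 8, 0 to 6, 0 to 2 and 0 to 7 lipogenic calls. The estimate of Pnpla3 in APAP against control ran from -0.21 without APAP 3 to 4.21 without APAP 4. DESeq2 called 1 sterol member in SLIT2+APAP against APAP, 2 in SLIT2+APAP against control and 2 in the interaction. It called 4 lipogenic members in APAP against control, 3 in SLIT2+APAP against APAP, 1 in SLIT2+APAP against control and 10 in the interaction. Over all genes DESeq2 called 1798, 3490, 1433 and 5593 of 23006 in these 4 comparisons. The compared libraries alone gave 0 lipogenic calls in SLIT2+APAP against APAP, where 1 of 15500 genes was called. In SLIT2+APAP against control they gave 2 sterol and 7 lipogenic calls, where 4246 of 15496 genes were called. Without the APAP libraries, a fit chosen after seeing the data, there were 3 sterol and 2 lipogenic calls in SLIT2+APAP against control and 8 lipogenic calls in SLIT2 against control, where 2582 and 11176 of 16419 genes were called. No count filter left 3 lipogenic calls in the interaction, where 4355 of 23006 genes were called. With GC offsets the Acacb interaction had an edgeR adjusted p of 0.05912.

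A replicate block over the control, SLIT2 and SLIT2+APAP libraries gave 2 sterol calls and 4 lipogenic calls in SLIT2+APAP against control, where 2494 of 16419 genes were called. In SLIT2 against control it gave 9 lipogenic calls, where 11062 of 16419 genes were called, and Nsdhl had an edgeR adjusted p of 0.07634. The differences between same-numbered libraries correlated across all genes tested by 0.075 between control and SLIT2, -0.071 between control and SLIT2+APAP and -0.015 between SLIT2 and SLIT2+APAP. Among the members, 14 of 15 sterol members were higher in library 2 of both control and SLIT2, as were 13 and 14 of 14 lipogenic members. In SLIT2+APAP 15 of 15 sterol and 9 of 14 lipogenic members were higher in library 1. Whether same-numbered libraries share a factor was not tested. Of 504 alternative values of single members, 411 kept direction and side of the threshold, 60 lost a call, 32 gained one and 1 changed direction.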
